A study of Homo sapiens with 6 samples.

Results

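mRNA levels of the ATP-binding cassette (ABC) transporter genes were compared between untreated and oxaliplatin-treated cells of HCT116, a human colorectal carcinoma line. A gene was taken as a member when its symbol consisted of ABC, a subfamily letter from A to G and a number. The rule uses the symbol alone and no measured value. It took 46 of the 27942 genes listed, under 45 symbols, because ABCF2 is listed under 2 identifiers (ENSG00000033050 and ENSG00000285292). The untreated cells (NT, 3 libraries) received no drug, and the treated cells (OXA, 3 libraries) received 0.5 µM oxaliplatin, a platinum compound that forms DNA adducts, for 24 h. Both groups were grown in the same serum-supplemented RPMI medium, are of 1 cell line and carry no engineered allele. Neither the labels nor the methods say whether the libraries of a group came from separate cultures, so p-values measure the spread between these libraries.

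ABC proteins bind and hydrolyse ATP on conserved nucleotide-binding domains, and most of them couple this to moving a substrate across a membrane. Members of subfamilies A and G mainly move sterols and other lipids, those of B and C include the pumps that export drugs and their conjugates, and those of D sit in peroxisomes or lysosomes. Members of E and F have no membrane-spanning part and act on ribosomes. In tumour cells the family is best known for drug efflux, through ABCB1 (P-glycoprotein or MDR1), the MRP proteins of subfamily C and ABCG2 (BCRP).

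Raw counts summed to between 32979521 and 40967880 per library. They were scaled by 1 TMM factor per library, and these normalized counts are given below, as mean ± SD over n = 3 libraries where a group is summarised. Levels of different genes are compared only as counts scaled to the TMM-adjusted library total and the length of the canonical transcript (CPM per kb). Fold changes are OXA over NT on the log2 scale with their standard error (SE), from the quasi-likelihood test of edgeR. Its p-values were adjusted by Benjamini and Hochberg's method over all 13727 genes that passed its filter on low counts, and the threshold is an adjusted p of 0.05. Same-numbered NT and OXA libraries varied together, so edgeR was also fitted with a replicate block (1 term per number), which is reported wherever a call differs. The epithelial markers EPCAM, CDH1, KRT8, KRT18 and CDX2 were present in every library, whereas CDH17 was at or under 3 counts. The summed level of all 7 epithelial markers was 71294 to 95942 normalized counts in NT and 101353 to 113696 in OXA. Without the replicate block 0 of the 6 tested ones were called, with 2 higher at an unadjusted edgeR p under 0.05, and with it KRT8 and KRT18 were called higher and CDH1 lower. Their part in the results was not tested. Leukocyte markers (5 genes) summed to 172 to 216 in NT and 201 to 228 in OXA, most of it CD68, with PTPRC at most 2 and CD3E at most 1 count. The 6 endothelial and fibroblast markers summed to 136 to 311 in NT and 200 to 295 in OXA, with DCN at 0. Of these 6, 2 passed the filter on low counts, and 0 were called in either edgeR fit.

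Of the 46 members, 32 passed the filter on low counts and were tested, and 14 were not. ABCA12 and ABCA1 rose, and 0 members were called lower by edgeR without the block or by limma-voom. DESeq2 called these 2 and ABCB6 higher and ABCG2 lower. The 2 of 32 called higher by edgeR stand beside 2.78% of all genes tested. Of all genes, 2.29% were called lower and 5.07% in either direction. With the replicate block, 5 members were called higher and 4 lower, beside 12.1% of all genes higher and 10.9% lower. The members called higher were then ABCA12, ABCA1, ABCB6, ABCB9 and ABCC1, and those called lower were ABCB10, ABCC2, ABCC3 and ABCG2. At an unadjusted edgeR p under 0.05, 5 members were higher and 2 lower, beside 21.7% of all genes in either direction. In 10 members the lowest OXA library exceeded the highest NT library, beside 14.5% of all genes, and in 1 member, ABCC5, all OXA libraries lay below all NT ones, beside 14.4%. The median log2 fold change of the 32 tested members was 0.14, with 23 above 0 and 9 below, and that of all genes tested was 0.023, with 53.3% above 0. With library totals as the only scaling, 20 members lay above 0 and 12 below. Without NT library 1 the median of the members was 0.081, again with 20 above 0 and 12 below. Each of the other fits with 1 library left out gave 21 above 0 and 11 below. The summed level of all members was 1569, 1551 and 1704 CPM in NT libraries 1 to 3 and 1697, 1608 and 1756 CPM in OXA libraries 1 to 3, so the ranges of the groups overlapped. These are bulk libraries, in which fewer expressing cells and less RNA per cell cannot be told apart.

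**Figure D1:**
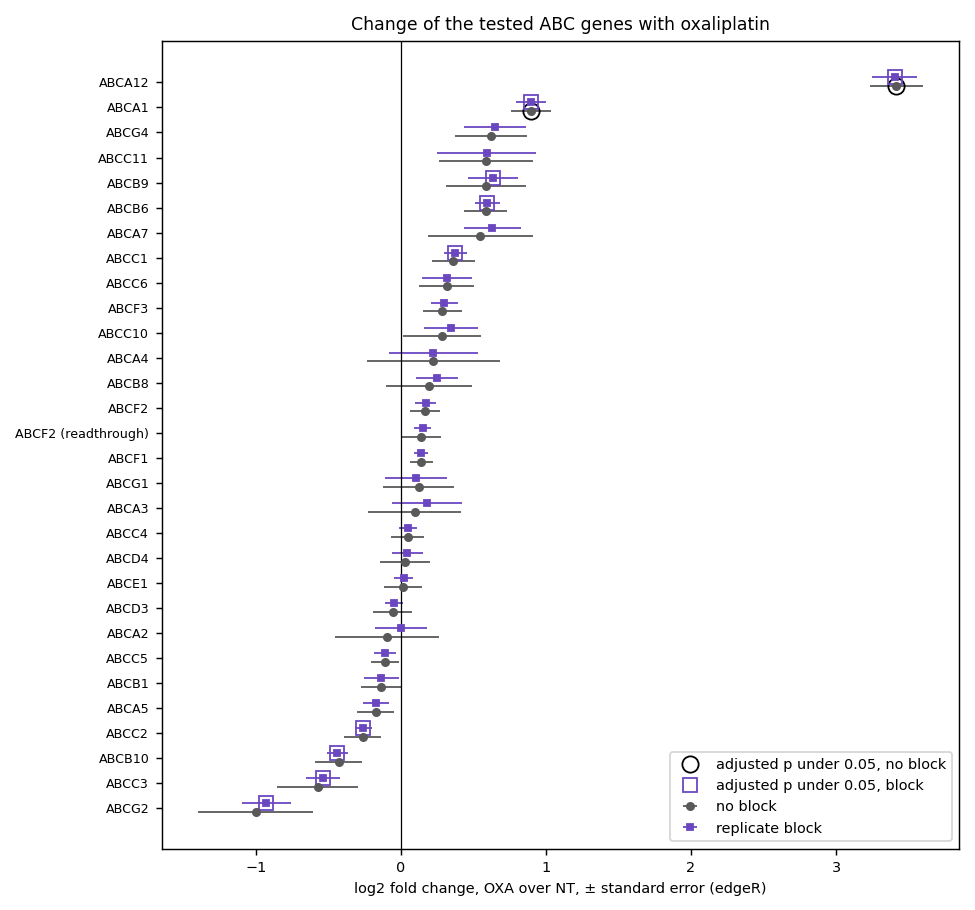
Log2 fold change (OXA over NT) of the tested ABC entries, in order of size, from edgeR without (grey circles) and with (purple squares) the replicate block. Bars are ± 1 standard error, and open outlines mark entries with an adjusted p under 0.05. Without the block ABCA12 stands apart at 3.42, and the other entries lie between -1.002 and 0.90.

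ABCA12 carried the largest change of the family. The protein loads glucosylceramides into the lamellar granules of keratinocytes and is needed for the lipid barrier of the skin. The gene (ENSG00000144452) lies on the minus strand at chr2:214931542-215138626 (GRCh38). RefSeq holds a pair of start sites for it, and the 250 bases before each are printed with those of ABCA1, because these are the members that passed the test. Capitals mark matches, on either strand, to the GC box (GGGCGG), the CCAAT box (CCAAT), the TATA box (TATAAA) or the p53 decamer (RRRCWWGYYY). This decamer is only a part of the p53 response element (R is A or G, W is A or T, Y is C or T). The sequences are from RefSeq on GRCh38.p14.

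ABCA12, upstream start site, chr2:215138627-215138876, minus strand: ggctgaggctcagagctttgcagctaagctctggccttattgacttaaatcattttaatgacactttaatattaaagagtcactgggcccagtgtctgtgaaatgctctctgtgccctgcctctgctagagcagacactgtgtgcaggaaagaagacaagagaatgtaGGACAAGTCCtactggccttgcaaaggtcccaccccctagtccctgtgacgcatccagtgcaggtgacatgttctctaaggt
ABCA12, internal start site, chr2:215032087-215032336, minus strand: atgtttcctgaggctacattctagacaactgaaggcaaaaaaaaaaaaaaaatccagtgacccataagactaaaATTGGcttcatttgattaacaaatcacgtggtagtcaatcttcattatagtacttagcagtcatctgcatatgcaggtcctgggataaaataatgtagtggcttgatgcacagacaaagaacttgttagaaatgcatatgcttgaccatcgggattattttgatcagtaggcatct
ABCA1, chr9:104928156-104928405, minus strand: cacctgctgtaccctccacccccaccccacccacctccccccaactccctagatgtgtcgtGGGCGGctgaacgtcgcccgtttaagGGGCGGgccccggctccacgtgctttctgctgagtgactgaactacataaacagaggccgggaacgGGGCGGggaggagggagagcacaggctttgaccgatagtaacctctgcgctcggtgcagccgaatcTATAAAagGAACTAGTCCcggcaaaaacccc

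The windows differed in base composition and in the letters they hold. The upstream ABCA12 window has 48.8% GC and 1 match to the p53 decamer, which begins 82 bases before the start site. The internal ABCA12 window has 36.4% GC and 1 CCAAT box, which begins 176 bases before the start. The ABCA1 window has 61.6% GC, a p53 decamer match that begins 23 bases before the start, a TATA box at 31 bases and GC boxes at 189, 163 and 97 bases. Of the 45 member symbols, 35 had a promoter entry, 53 entries in all. The p53 decamer was found in 8 of these 53 windows and in 5.57% of all 35116 promoter windows of that length. Besides ABCA12 and ABCA1, these windows belong to ABCC5, ABCC11 and ABCG4, called in neither fit, and to ABCA6 and ABCD2, not tested. An ABCC11 window holds the same decamer letters as ABCA12. GC boxes were found in 25 of the 53 and in 42.6% of all, CCAAT boxes in 11 and in 32% of all, and TATA boxes in 6 and in 10.7% of all. The deposited values do not resolve start sites, and the factor that may bind such letters was not measured.

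ABCA12 had 37.8, 42.6 and 40.2 normalized counts in NT libraries 1 to 3 and 507, 407 and 377 in OXA libraries 1 to 3. The raw counts behind these were 37, 41 and 44 in NT against 469, 373 and 423 in OXA. Every OXA library lay far above every NT library, and the spread within NT was small. The mean rose from 40.2 ± 2.39 to 430.3 ± 68.4 normalized counts, which is 10.7-fold (log2 fold change 3.42, SE 0.18, edgeR adjusted p = 0.000445). Same-numbered pairs gave log2 ratios of 3.75, 3.25 and 3.23. Per transcript length, ABCA12 went from 0.120 to 1.29 CPM per kb, from near the bottom of the tested members to the range of ABCA5 and ABCB1. It was the only member called by a test against a 1.5-fold change, and it was called in each of the 6 fits that left out 1 library (edgeR adjusted p between 0.000129 and 0.00653).

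ABCA1 exports cholesterol and phospholipids to lipid-poor apolipoprotein A-I, the first step in forming high-density lipoprotein. Its gene (ENSG00000165029) lies at chr9:104781006-104928155 on the minus strand. ABCA1 had 179.9, 188 and 214 normalized counts in NT against 341, 355 and 387 in OXA. The groups did not overlap, and the 3 same-numbered pairs gave nearly the same log2 ratio, 0.92, 0.92 and 0.86. The mean rose 1.86-fold, from 194 ± 17.5 to 361 ± 23.4 (log2 fold change 0.90, SE 0.14, edgeR adjusted p = 0.0160). The call was kept without NT library 1 but lost without any 1 of the other 5 libraries, where the edgeR adjusted p lay between 0.0521 and 0.0867 at log2 fold changes of 0.81 to 0.94. With the replicate block the edgeR adjusted p was 0.00533.

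The other 5 tested members of subfamily A were not called in either fit. ABCA2, a lipid transporter of endolysosomes, was the most abundant per length in NT (6.71 CPM per kb). It had 916, 2568 and 2384 normalized counts in NT against 1397, 2234 and 1862 in OXA, so the groups overlapped and library 1 was the lowest of each (log2 fold change -0.095, SE 0.36, edgeR adjusted p = 0.910). ABCA7, a phospholipid transporter with a known role in phagocytosis, had 359.6 ± 167 in NT against 526 ± 113 in OXA. There too the groups overlapped. ABCA3, which fills the lamellar bodies of the lung with surfactant lipid, had 320.4 ± 145 in NT against 343 ± 26.9 in OXA. ABCA5, a lysosomal member, had 408 ± 28.9 in NT against 361 ± 18.8 in OXA. ABCA4, the retinal member, was the least abundant tested one, at 0.0578 CPM per kb in NT, with 9.20, 22.9 and 13.7 normalized counts in NT against 14.1, 27.3 and 12.5 in OXA. ABCA8 (0 to 4 raw counts per library) and ABCA10 (1 to 5) were not tested. ABCA6, ABCA9 and ABCA13 were at or under 3 counts in every library, ABCA9 at 0 in all 6.

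**Figure D2:**
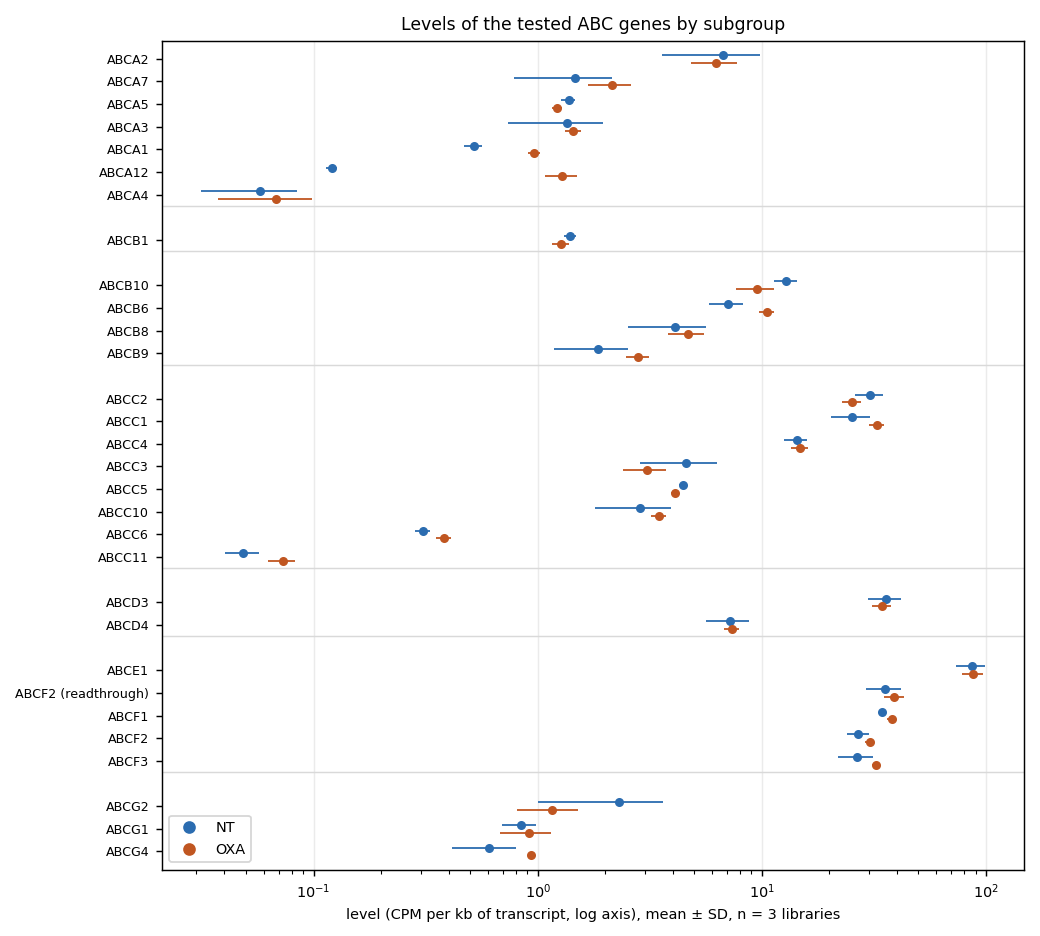
Level of the tested ABC entries in NT and OXA in CPM per kb of transcript on a log axis, by subgroup. Points are means and bars the SD over 3 libraries. ABCE1 is the highest at 86.7 in NT, and ABCA12 moves from 0.120 to 1.29.

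Subfamily B falls into members at the cell surface and members of organelles. None was called by edgeR on all 6 libraries without the block. ABCB1, the P-glycoprotein that exports many hydrophobic drugs, was the sole surface member that passed the filter. It had 252, 279.6 and 252 normalized counts in NT against 262, 221 and 231 in OXA (log2 fold change -0.13, SE 0.14, edgeR adjusted p = 0.639), so the groups overlapped. Its level in NT was 1.395 CPM per kb. ABCB1 overlaps RUNDC3B on the opposite strand, which had 370 normalized counts in NT against 275 in OXA. Whether reads of RUNDC3B were counted for ABCB1 is not known, because the strand setting of the counting is not given. ABCB4, the phosphatidylcholine translocator of the bile canaliculus, ABCB5 and ABCB11, the bile salt export pump, were at or under 3 counts in every library, and ABCB11 was at 0 in all 6.

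The 5 organelle members were all tested, and with the block 2 were called higher and 1 lower, where 12.1% and 10.9% of all genes were. ABCB6, a porphyrin transporter, had 604, 817 and 844 normalized counts in NT against 1037, 1160.1 and 1199 in OXA. All OXA libraries lay above all NT libraries, and the means were 755 ± 131 and 1132 ± 84.9 (log2 fold change 0.58, SE 0.15, edgeR adjusted p = 0.0679). It was called by edgeR with the block (adjusted p = 0.00893), by DESeq2 (adjusted p = 0.0107) and by edgeR without NT library 1 (log2 fold change 0.45, adjusted p = 0.0348). AC068946.2 overlaps ABCB6 on the same strand and had 27.0 normalized counts in NT against 47.8 in OXA, which is small beside ABCB6.

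ABCB9, a peptide transporter of the lysosome, had 136, 286 and 278 normalized counts in NT against 303, 376 and 372 in OXA. The groups did not overlap, but NT library 1 lay far below the other NT libraries (log2 fold change 0.59, SE 0.28, edgeR adjusted p = 0.273). With the block the log2 fold change was 0.64 and the edgeR adjusted p 0.0488, and without NT library 1 the log2 fold change was 0.31 (adjusted p = 0.235). ABCB9 overlaps OGFOD2 and ARL6IP4 on the opposite strand, and the strand setting of the counting is not given in the sources used here. ABCB10, a mitochondrial member linked to haem synthesis, had 1896, 1543 and 1925 in NT against 1334, 1067 and 1582 in OXA. Each OXA library lay below the NT library of its number, although OXA library 3 exceeded NT library 2 (log2 fold change -0.43, SE 0.16, edgeR adjusted p = 0.176). With the block ABCB10 was called lower (log2 fold change -0.44, edgeR adjusted p = 0.0139). ABCB8, also mitochondrial, had 685 ± 263 in NT against 783 ± 147 in OXA. In NT, ABCB10 was the most abundant of these members (12.8 CPM per kb) and ABCB9 the least (1.86 CPM per kb).

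The 7 members best known as drug efflux pumps are ABCB1, ABCC1 to ABCC5 and ABCG2, and all were tested. None was called by edgeR on all 6 libraries without the block. Their median log2 fold change was -0.13, with 2 above 0 and 5 below. With the block 1 of the 7 was called higher and 3 lower, beside the 12.1% and 10.9% of all genes. MRP proteins are known to export platinum bound to glutathione, and transport was not measured here.

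ABCC1 (MRP1), which exports glutathione conjugates, had 4656, 6233 and 6909 normalized counts in NT against 7089, 7500.3 and 8244 in OXA. The groups did not overlap, and NT library 1 was again the lowest (log2 fold change 0.36, SE 0.15, edgeR adjusted p = 0.214). With the block the log2 fold change was 0.38 (edgeR adjusted p = 0.0264), and without NT library 1 it was 0.21 (adjusted p = 0.223). ABCC2 (MRP2), its apical relative, was the most abundant C member per length in NT, at 30.4 CPM per kb. It had 6127, 5579.7 and 7340.0 in NT against 5469, 4693 and 5710.4 in OXA, each OXA library below the NT library of its number although the ranges overlapped (log2 fold change -0.26, SE 0.13, edgeR adjusted p = 0.282). The block gave the same log2 fold change at an edgeR adjusted p of 0.0274.

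ABCC3 (MRP3), a basolateral exporter of bile salts and glucuronides, had 621, 876 and 1319 normalized counts in NT against 538, 563 and 789 in OXA. The groups overlapped, and NT library 3 was far above the others (log2 fold change -0.58, SE 0.28, edgeR adjusted p = 0.281). With the block ABCC3 was called lower at -0.54 (edgeR adjusted p = 0.0276). Without NT library 3 the log2 fold change was -0.28 (edgeR adjusted p = 0.582), and without NT library 1 it was -0.80 (adjusted p = 0.0433). ABCC4 (MRP4), which exports cyclic nucleotides, had 3425, 2803 and 2809 in NT against 3315, 2804 and 3210.3 in OXA, with overlapping groups (log2 fold change 0.046, SE 0.11, edgeR adjusted p = 0.859). ABCC5 (MRP5), also an exporter of cyclic nucleotides, had 894, 911 and 968 in NT against 892, 824 and 852 in OXA. Its groups were separated by less than 3 normalized counts (log2 fold change -0.11, SE 0.097, edgeR adjusted p = 0.563).

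ABCG2 (BCRP), an apical pump for drugs and urate, showed the largest negative log2 fold change of the family. It had 251.5, 221 and 579 normalized counts in NT against 169, 125 and 231 in OXA. NT library 3 was more than 2 times any other library, and OXA library 3 exceeded NT library 2, so the groups overlapped. The log2 fold change was -1.002 (SE 0.40, edgeR adjusted p = 0.198), and without NT library 3 it was -0.46 (adjusted p = 0.430). Within same-numbered pairs the log2 ratios were -0.57, -0.82 and -1.33. ABCG2 was called lower with the block (log2 fold change -0.93, edgeR adjusted p = 0.0170) and by DESeq2 (adjusted p = 0.0467).

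**Figure D3:**
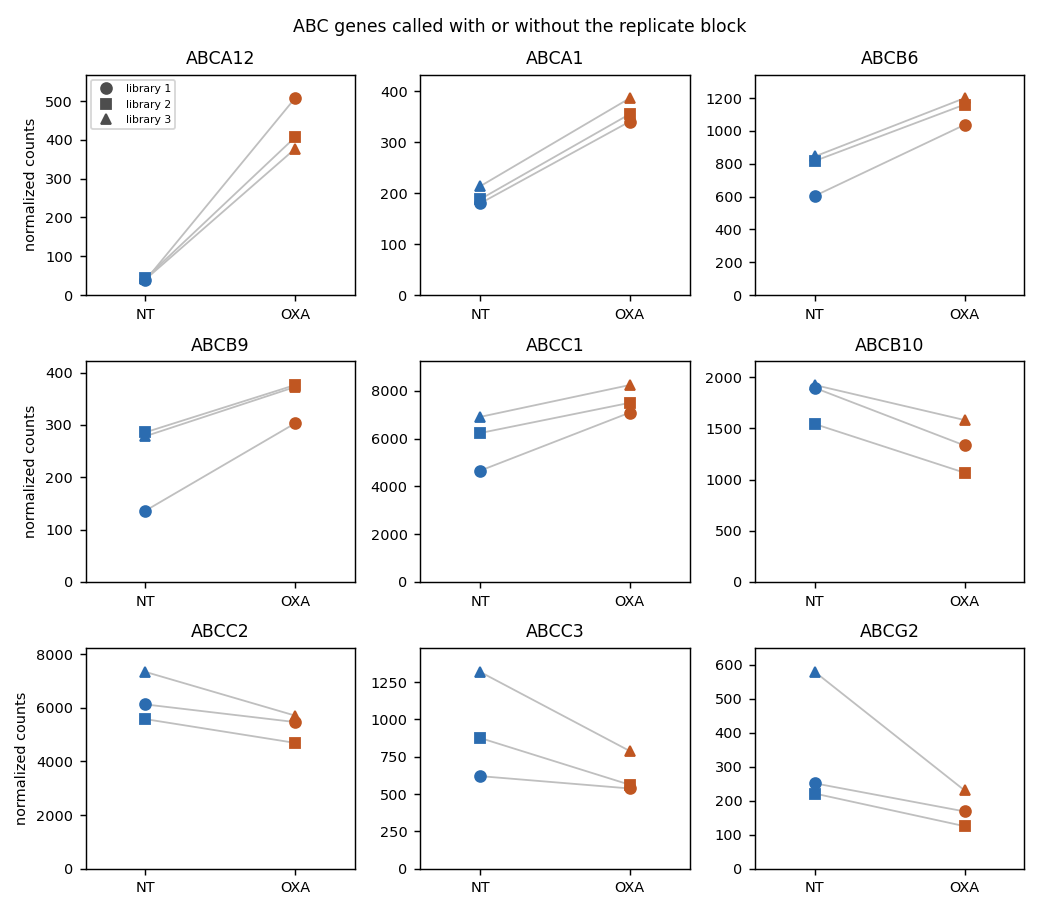
Normalized counts of each library for the 9 members called by edgeR with or without the replicate block, on linear axes that start at 0, with same-numbered NT and OXA libraries joined by lines. Symbols mark the library number. In ABCA12 the OXA libraries lie between 377 and 507 against 37.8 to 42.6 in NT, and in ABCG2 NT library 3 lies at 579 above every other library.

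The remaining C members were less abundant. ABCC10 (MRP7) had 521 ± 194 normalized counts in NT against 633 ± 48.8 in OXA. ABCC6, which is needed to prevent soft-tissue calcification, had 56.7 ± 4.26 in NT against 70.5 ± 5.16 in OXA, but pseudogene copies near it could share its reads. ABCC11, the pump behind wet and dry earwax, was the least abundant tested C member (0.0486 CPM per kb in NT), with 11.2, 11.4 and 8.21 normalized counts in NT against 13.0, 16.4 and 16.9 in OXA. The OXA libraries of ABCC11 all lay above those of NT, at few counts (log2 fold change 0.59, SE 0.32, edgeR adjusted p = 0.348). It overlaps the abundant LONP2 on the opposite strand. ABCC12 was at or under 3 counts in every library. So were ABCC8 and ABCC9, the sulfonylurea receptors, which are not pumps but regulatory subunits of potassium channels.

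Subfamily D gave no call in either fit. ABCD3 (PMP70), which carries branched-chain and long-chain fatty acids into peroxisomes, was abundant at 35.7 CPM per kb in NT. It had 5482, 3977 and 4441 normalized counts in NT against 4794, 3982 and 4582 in OXA, with overlapping groups (log2 fold change -0.057, SE 0.14, edgeR adjusted p = 0.851). ABCD4, a lysosomal member that serves the release of cobalamin, had 787 ± 169 in NT against 802 ± 64.3 in OXA. ABCD2, a peroxisomal member, had 7 to 12 raw counts per library and was not tested.

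The 5 entries of subfamilies E and F were all tested, and none was called in either fit. ABCE1, which splits ribosomes for reuse after translation ends, was the most abundant member of the family at 86.7 CPM per kb in NT. It had 14037, 10522 and 11797 normalized counts in NT against 12918, 10737 and 13028 in OXA (log2 fold change 0.013, SE 0.13, edgeR adjusted p = 0.971). ABCE1 overlaps OTUD4 and ANAPC10 on the opposite strand, which had 3774 and 641 normalized counts in NT. Whether their reads were counted for ABCE1 is not known. ABCF3, linked to translation like the rest of its subfamily, had 1866, 2508 and 2649 in NT against 2742, 2963 and 2858 in OXA, so the groups did not overlap (log2 fold change 0.29, SE 0.14, edgeR adjusted p = 0.277). At 26.6 CPM per kb in NT it was the least abundant of these entries. ABCF1, which acts in translation initiation, had 4221 ± 132 in NT against 4652 ± 223 in OXA, again without overlap. The 2 ABCF2 entries overlap on the same strand, the second being the ABCF2-H2BK1 readthrough gene in GENCODE, so reads could be split between them. They had 4397 ± 487 and 2789 ± 483 in NT against 4936 ± 219 and 3074 ± 307 in OXA.

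Beside ABCG2, 2 members of subfamily G were tested. ABCG4, a sterol exporter, was the least abundant of them at 0.605 CPM per kb in NT, and ABCG2 the most abundant at 2.32 CPM per kb. ABCG4 had 56.2, 84.2 and 109 normalized counts in NT against 129, 129.7 and 126 in OXA. All OXA libraries lay above all NT libraries (log2 fold change 0.62, SE 0.25, edgeR adjusted p = 0.201, and 0.0803 with the block). ABCG1, which exports cholesterol to high-density lipoprotein, had 89.8 ± 15.8 in NT against 97.8 ± 24.8 in OXA. ABCG5 (0 to 5 raw counts per library) was not tested, and ABCG8, its partner in sterol export from gut and liver, was at or under 3 counts in every library.

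In all, 10 members were at or under 3 counts in each of the 6 libraries. This floor is 0.0732 to 0.0910 CPM of the library total without the TMM factor. Several of these 10 members are neighbours in the genome. On chromosome 17, ABCA8, ABCA9, ABCA6, ABCA10 and ABCA5 lie in 1 row with gaps under 100 kb, and only ABCA5 was tested, with 312 to 460 raw counts per library against at most 5 for the other 4. ABCB1 (203 to 276 raw counts) lies beside ABCB4 (0 to 3) on chromosome 7. ABCC11 (9 to 19) lies beside ABCC12 (0 to 3) on chromosome 16. ABCG5 and ABCG8 overlap on opposite strands of chromosome 2 and were both near 0. ABCC1 and ABCC6 are neighbours on chromosome 16 that were both tested.

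Library 1 stood apart in several members, and its offset followed the GC content of the transcript. In NT library 1 the log2 level minus the mean of NT libraries 2 and 3 fell with GC over the 32 tested members (Spearman's rho -0.75, Pearson's r -0.76), and in OXA library 1 it did so too (rho -0.72, r -0.70). These correlations run across genes of the same libraries, and genes are not independent replicates. Over 13675 tested genes with a known GC content, rho was -0.77 in NT library 1 and -0.57 in OXA library 1. Among the members with at least 60% GC, ABCA2, ABCA3, ABCA7, ABCB8, ABCB9 and ABCC10 differed from the other NT libraries by -1.43 to -1.05 on the log2 scale in NT library 1. In OXA library 1 these 6 members differed from the other OXA libraries by -0.55 to -0.18. The 25 tested members under 60% GC differed by -0.91 to 0.41 in NT library 1, with a median of -0.072. ABCA12, at 42.6% GC, and ABCA1, at 45.4%, belong to these 25, and ABCB6 (59.1%) lies just under the limit. The part of this offset in the fold changes of the GC-rich members was not tested separately. The fits without NT or OXA library 1 and the fit with the replicate block bear on it. The block takes up only the offset that NT and OXA library 1 share.

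**Figure D4:**
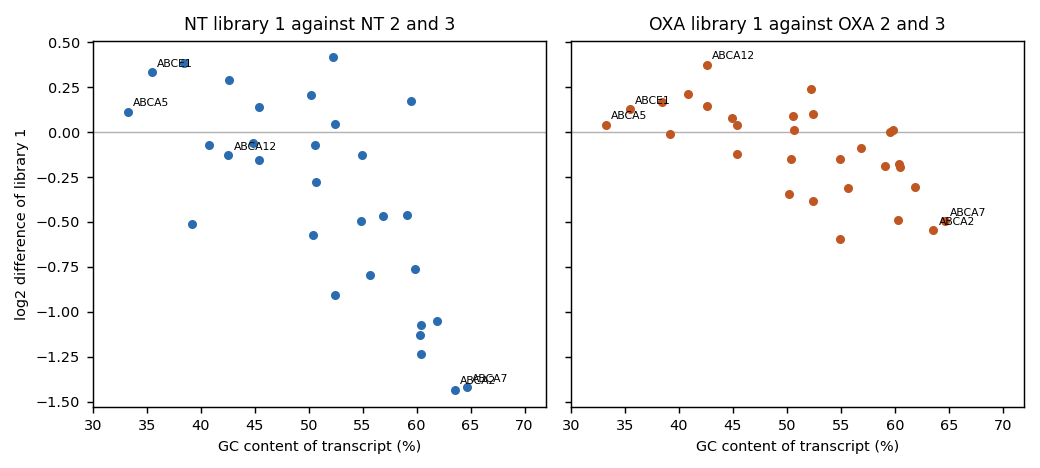
Log2 level in library 1 minus the mean of libraries 2 and 3, for NT and for OXA, against the GC content of the canonical transcript (percent) of the tested ABC entries. In NT the 6 entries at or above 60% GC lie between -1.43 and -1.05.

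Genes that work with ABC transporters were listed as well, in 4 lists with 52 genes, of which 38 were tested. Of these 38, edgeR called 3 higher and 0 lower, beside 2.78% and 2.29% of all genes, and DESeq2 gave the same counts, with 5 higher and 1 lower at an unadjusted edgeR p under 0.05. With the block 4 were called higher and 2 lower, beside 12.1% and 10.9% of all genes. The first list holds superfamily genes under other symbols, which the rule does not take. TAP1, a subunit of the transporter that feeds peptides to MHC class I molecules, had 1275, 1581 and 1894 normalized counts in NT against 3069.5, 2887 and 3472 in OXA. The groups did not overlap, and the mean rose from 1583 ± 309 to 3143 ± 299 (log2 fold change 0.99, SE 0.15, edgeR adjusted p = 0.0150). The call was kept without NT library 1 or NT library 3 and lost without any 1 of the other 4 (largest adjusted p 0.0773). TAP2, the partner subunit, had 2528 ± 287 in NT against 2820.0 ± 69.4 in OXA (log2 fold change 0.16, edgeR adjusted p = 0.435), and CFTR, the chloride channel, had too few counts to be tested.

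The list of skin barrier lipid genes, the setting in which ABCA12 is known, held 16 genes, of which 11 were tested. Without the block 2 of the 11 were called higher and 0 lower, beside 2.78% and 2.29% of all genes. Of the 11 log2 fold changes, 6 lay above 0 and 5 below. ALOXE3, a lipoxygenase of the epidermis, had 156, 203 and 172 normalized counts in NT against 326, 362 and 327 in OXA. The mean rose from 177 ± 23.5 to 338 ± 20.6 (log2 fold change 0.93, SE 0.15, edgeR adjusted p = 0.0186). ELOVL1, which lengthens very-long-chain fatty acids, had 1912, 2044 and 2239.5 in NT against 2853, 2989 and 2939 in OXA, and rose as well (log2 fold change 0.50, SE 0.091, edgeR adjusted p = 0.0252). In both genes all OXA libraries lay above all NT libraries, as in 14.5% of all genes tested. ALOXE3 was called in only 2 and ELOVL1 in only 1 of the 6 fits with 1 library left out. With the authors' gene-specific factors neither was called (edgeR adjusted p 0.125 and 0.104). DEGS1, a dihydroceramide desaturase, was called lower with the block only (log2 fold change -0.29, edgeR adjusted p = 0.0429), where 10.9% of all genes were. ELOVL4 and SDR9C7 were at 0 in all libraries, and the median log2 fold change of the tested genes of the list was 0.16, beside 0.023 over all genes.

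Of 17 transcription factors known to regulate ABC genes, 13 were tested and 0 were called without the block, or by DESeq2, with 1 higher and 1 lower at an unadjusted edgeR p under 0.05. With the block HIF1A was called higher (log2 fold change 0.20, edgeR adjusted p = 0.0418) and PPARA lower (log2 fold change -0.28, edgeR adjusted p = 0.0410). These 1 higher and 1 lower of 13 stand beside 12.1% and 10.9% of all genes with the block. HIF1A had 9609.8 ± 1367 normalized counts in NT against 11053 ± 1501 in OXA, and PPARA had 1091 ± 94.4 and 895 ± 30.1. NR1H4, the bile acid receptor FXR, was at 0 in every library. Of 16 partner proteins, such as peroxisome assembly factors, 12 were tested and 0 were called in either edgeR fit or by DESeq2, with 1 at an unadjusted p under 0.05. The medians of these lists were -0.018 and 0.11 on the log2 scale.

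**Figure D5:**
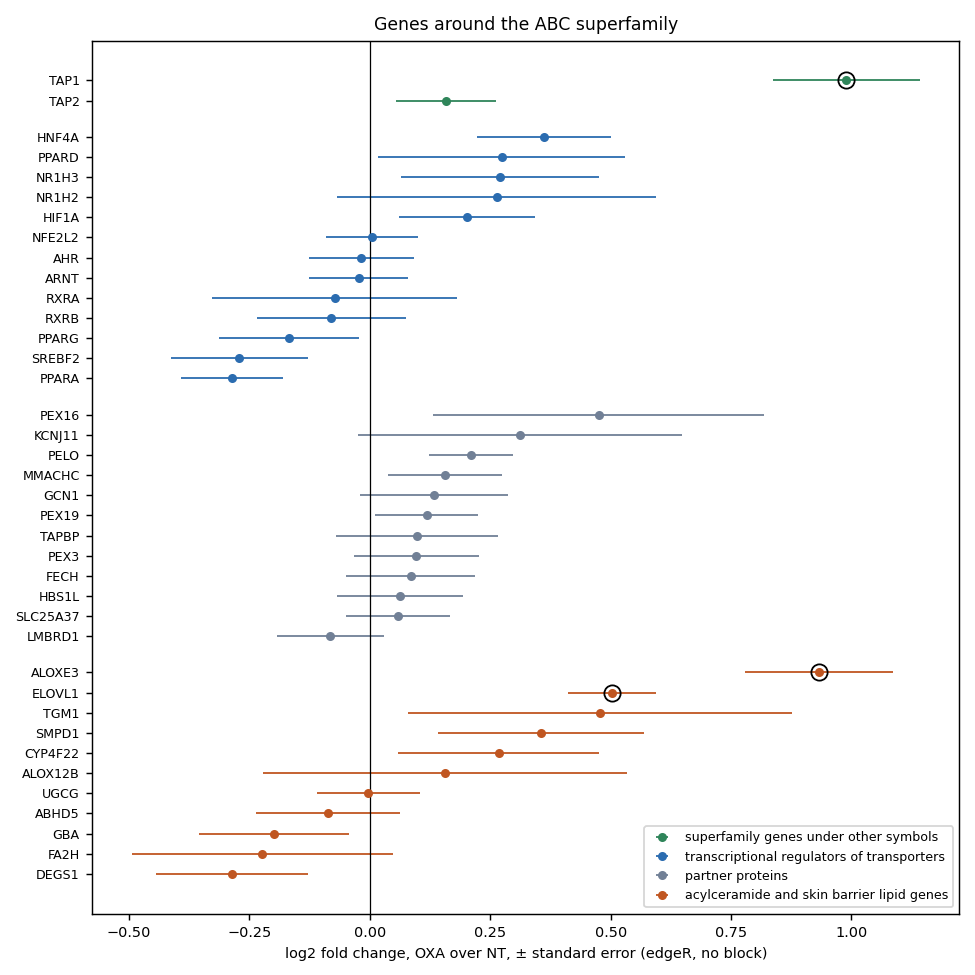
Log2 fold change (OXA over NT) with 1 standard error for the 38 tested genes of the 4 related lists, coloured by list, from edgeR without the block. Open circles mark TAP1 (0.99), ALOXE3 (0.93) and ELOVL1 (0.50), which passed the adjusted threshold.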

How the data were processed

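Polyadenylated RNA of HCT116 cells was sequenced in 6 libraries, 3 NT and 3 OXA, grouped by the sample labels. The submitters' processing notes name Trimmomatic 0.32, STAR 2.7.5b, RSEM 1.3.3, DESeq2 2.13 and GRCh38. The annotation and strand setting of the counting are not given in the sources used here. The authors deposited a raw count and a normalized signal per gene and library. The signal scales each raw count by a number that depends on the gene and the library (0.565 at percentile 1 and 1.99 at percentile 99 in NT library 1), and was used only for an alternative chosen after seeing the data.

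Of 27942 genes, 19353 had a count, and 13727 passed edgeR's filterByExpr (minimum count 10, minimum total 15). They were normalized by TMM and tested with edgeR's quasi-likelihood test (R 4.3.3 with edgeR 4.0.16, DESeq2 1.42.0 and limma 3.58.1) and Benjamini-Hochberg adjustment. The SE was obtained from the log2 fold change and its F statistic. A floor of 3 counts covers counting error only. Positions, lengths and GC come from GENCODE release 44 (GRCh38), and promoters from RefSeq (GRCh38.p14). The steps were tested on simulated data with 200 changed genes. With shared pair differences, the fit without the block recovered 127 with 0 false calls, and the block fit 199 with 14. Without such differences the fits recovered 196 and 194, with 9 and 5 false calls. The simulated pair differences were not matched in size to those of these libraries.

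Deviations of same-numbered libraries from their group means correlated at 0.71, 0.71 and 0.41, and those of differently numbered ones at -0.60 to 0.15. The deviations of a group sum to 0 for each gene, so positive values for some pairs force negative ones for others. Because the same-numbered values were the highest, the numbers, which come from the labels, were taken to pair the libraries. No pair of libraries in a group agreed within counting error.

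The members, roles, markers and related lists were chosen with earlier results of these data known. Named with values are members called with or without the block, the most and least abundant tested member of each subgroup, the efflux pumps, called genes of the related lists, TAP1, TAP2 and CFTR. Other members are given by their means. The values of 2 members are not reported here.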

Additional observations from a re-analysis of the deposited data

How the results depend on the processing

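ABCA12 was called under every alternative tried, at log2 fold changes between 3.09 and 3.47. The members called higher (2) numbered 3 with DESeq2 and 5 with the replicate block. They also numbered 5 with the block and the authors' gene-specific factors (chosen after seeing the data). Against a 1.5-fold change 1 was called, and with a library left out 1 to 3. The members called lower (0) numbered 1 with DESeq2, 4 with the block, 4 with the block and the authors' factors and 0 to 1 with a library left out. Over all genes, 381 were called higher and 315 lower. These counts were 604 and 571 with DESeq2, 1664 and 1493 with the block, 41 and 9 against a 1.5-fold change, 241 and 200 with the authors' factors, 1319 and 1167 with both, and 66 to 623 and 19 to 571 with a library left out. With library totals only, 511 genes were lower. The related genes called higher (3) numbered 0 against a 1.5-fold change, 1 with the authors' factors and 0 to 3 with a library left out, and those called lower (0) numbered 2 with the block and 3 with the block and the authors' factors. Among the members reported, signs turned only in uncalled ones. With the authors' factors, without and with the block, the log2 fold change was 0.012 and 0.022 for ABCB1, 0.12 and 0.23 for ABCA2, 0.11 and 0.11 for ABCC5, and -0.025 and -0.016 for ABCE1. ABCA2 was at 0.014 with limma-voom and 0.0013 with the block. ABCE1 was at -0.027 with library totals only and -0.017 with no filter. With a library left out, ABCA2 ranged from -0.43 to 0.13, ABCE1 from -0.11 to 0.13, ABCD3 from -0.19 to 0.082, ABCC4 from -0.036 to 0.15 and ABCA4 from -0.20 to 0.60. Among members given by their means, the sign also turned in ABCA3 (-0.21 to 0.41), ABCB8 (-0.095 to 0.35), ABCD4 (-0.14 to 0.11, and -0.12 and -0.10 with the authors' factors without and with the block) and ABCG1 (-0.066 to 0.30). The cause of these changes was not tested. The block changed no other call among the members than those given above. With no filter 44 members were tested and 2 were called higher and 0 lower. For members under the filter, small differences were not detectable at this depth.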
